A study of Homo sapiens with 6 samples.

Results

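ISG15 conjugation is a protein modification that resembles ubiquitination. The 6 genes that encode its core enzymes and modifier were followed in A2780 ovarian cancer cells: ISG15, UBA7, UBE2L6, HERC5, HERC6 and USP18. They are 6 of the 16571 gene symbols in the count table. They were listed by symbol with results of the same comparison already known, so the comparison of their levels between the groups is a description and carries no test.

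RNA-seq was carried out on A2780, an established human cell line labelled as serous ovarian cancer. The 3 control libraries came from cells infected with lentivirus carrying pGIPZ-NC, the control vector, and the other 3 from cells infected with lentivirus carrying shUSP39, a short hairpin RNA against the spliceosome protein USP39. Per the study's methods, hairpins were cloned into pGIPZ and stable lines were selected with puromycin. The labels do not say which hairpin was used. They call the libraries biological replicates, and whether cells were infected separately is not stated, so p-values measure the spread between these libraries.

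ISG15 is a small modifier made of a pair of ubiquitin-like domains and is induced by type I interferon. It is activated by the E1 enzyme UBA7, passed to the E2 enzyme UBE2L6 and joined to lysines of target proteins by an E3 ligase, which in human cells is mainly HERC5. HERC6 is the paralogue of HERC5 and serves as the main ISG15 ligase in mice. USP18 removes ISG15 from its targets and, apart from that activity, binds the interferon receptor subunit IFNAR2 and dampens signalling. All of these genes are known as interferon-stimulated genes. A common switch in their promoters is the ISRE (interferon-stimulated response element), to which IRF9 and other IRF proteins bind.

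Promoter sequence is shown first, since the ISRE is the known switch of these genes. RefSeq windows of 300 bases around the start site (250 before it and 50 after it, GRCh38.p14) were matched for 4 of the 6 members, not for UBA7 and USP18. They were searched on both strands for the ISRE core GAAANNGAAA, where N is any base. The stretches below run from 150 to 51 bases before the start, 5′ to 3′ along the gene's strand, and capitals mark matches to the core. They lie at chr1:1013347-1013446 (plus strand) for ISG15, chr4:88456969-88457068 (plus) for HERC5, chr4:88378702-88378801 (plus) for HERC6 and chr11:57567986-57568085 (minus) for UBE2L6.
ISG15: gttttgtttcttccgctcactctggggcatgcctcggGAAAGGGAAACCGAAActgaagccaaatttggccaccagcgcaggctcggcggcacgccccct
HERC5: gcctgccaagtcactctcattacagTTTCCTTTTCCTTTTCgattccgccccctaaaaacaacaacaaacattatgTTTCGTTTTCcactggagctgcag
HERC6: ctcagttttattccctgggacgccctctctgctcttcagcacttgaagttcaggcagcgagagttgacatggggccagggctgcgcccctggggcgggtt
UBE2L6: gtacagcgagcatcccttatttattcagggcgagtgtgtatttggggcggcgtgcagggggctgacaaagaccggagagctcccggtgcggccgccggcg

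The ISG15 window held 2 matches, at -113 to -104 and -107 to -98 from the start, which overlap each other on the gene's strand. The HERC5 window held 3 on the opposite strand, at -125 to -116, -119 to -110 and -74 to -65, of which the first and the second overlap. The HERC6 window and both UBE2L6 windows held 0, which says only that these letters are absent from these windows. The core was found in 3.57% of all 35116 windows, in 2.90% of the windows of tested genes in 5.85% of those of genes called higher below and in 6.07% of those of genes called lower. Genes called higher and genes called lower thus held it at about the same share. The GAS letters TTCNNNGAA, searched in the same way, were in 0 of the members' windows and in 7.66% of all windows. A match is a description of the sequence and does not show that a factor was bound.

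Depth was 28294819 to 32939264 counts per library, and 10695 genes passed the filter on low counts, all 6 members among them. The number of genes with a count set shUSP39 replicates 2 and 3 apart, with 15446 and 14890 against 12662 to 12819 in the other 4 libraries, so results are also given with shUSP39 replicate 1 as the only shUSP39 library. That fit takes its spread from the control libraries and assumes that the lone library varies like them, and it passes fewer genes at an adjusted p under 0.05 in all (2244 instead of 3598), so a call kept or lost in it says little by itself. USP39 was not analysed here, so no check of the labels by the targeted gene was made. Levels are given as CPM, counts scaled to a common library size. Of 11 ovarian carcinoma markers 4 passed the filter. KRT19 fell from 24.4 to 1.96 CPM, KRT18 rose from 22.4 to 32.9 CPM, KRT8 had 0.979 CPM in the control and 0.0312 CPM in the hairpin libraries, and KRT7 did not pass the test. PAX8, EPCAM and CDH1 had at most 6 counts in any library. The table appears to leave out reads that transcripts of a gene share, since UBE2L3 and JAK1, genes with a role in most cells, had 1 count each in all 6 libraries together. A low count of a gene with several transcripts, these markers included, does not show that it is absent. The 5 of 10 leukocyte markers in the table summed to 0.188 to 0.531 CPM in the control libraries and to 0.219 to 0.849 CPM in the hairpin libraries, with PTPRC at 7 counts or fewer. The 8 fibroblast and endothelial markers summed to 1134 to 1199 CPM in the control and to 456 to 476 CPM in the hairpin libraries, nearly all of it COL1A2, and their part in the results below was not tested.

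In the shUSP39 libraries, mRNA of the modifier ISG15 and of its ligase HERC5 was several times higher than in pGIPZ-NC. UBA7, which activates ISG15, was lower, and the means of the E2 enzyme UBE2L6 and the protease USP18 were 0.945-fold and 0.966-fold the control mean. HERC6 was somewhat higher, with groups that overlapped. Of the 6 members, 2 were called higher over 2-fold (Benjamini-Hochberg adjusted p under 0.05 in edgeR's quasi-likelihood test), where 4.53% of all tested genes were, and 0 were called lower, where 2.28% were. On the adjusted p alone, 2 members were higher and 1 was lower, beside 16.1% and 17.5% of all tested genes. The groups did not overlap for 4 members, with the shUSP39 libraries higher in 2 (21.7% of tested genes) and lower in 2 (22.5%). The separation of USP18, among the latter, rests on the scaling. Because the members were chosen on this comparison, nothing is read from these counts. In bulk RNA, a lower level may come from fewer cells with the transcript or from less RNA per cell, and these cannot be told apart.

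**Figure D1:**
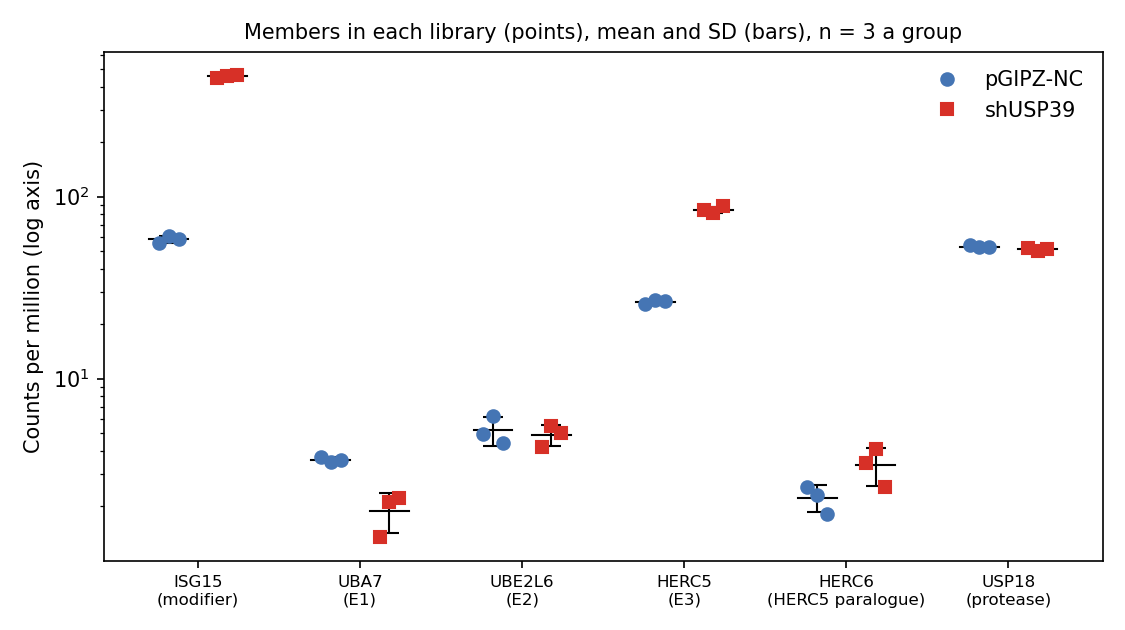
Level of each member in each library in CPM on a log axis, with pGIPZ-NC as circles and shUSP39 as squares, and the mean and SD of 3 libraries as bars. ISG15 and HERC5 sit well above their control libraries, UBA7 below, USP18 and UBE2L6 at about the control level, and the HERC6 groups touch.

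ISG15 (chr1:948877-949920, plus strand, hg19, 2 exons) had 1779, 1976 and 1660 counts in pGIPZ-NC replicates 1 to 3 and 14279, 14129 and 13744 in shUSP39. The groups were far apart, and the libraries of each group lay close together. After scaling, the control mean was 58.5 ± 2.53 CPM and the hairpin mean 457 ± 9.89 CPM (± SD, 3 libraries each). The fitted difference was 7.82-fold, or 2.97 on the log2 scale (SE 0.04, 95% confidence interval 2.88 to 3.06). In the order of fitted log2 fold changes, ISG15 stood at place 65 from the top among 10695 tested genes. With shUSP39 replicate 1 alone the log2 fold change was 2.93.

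UBA7 (chr3:49842642-49851386, minus strand, 24 exons), the E1 enzyme that activates ISG15, had 118, 113 and 101 counts in pGIPZ-NC and 43, 64 and 65 in shUSP39. Every shUSP39 library was below every control library, and shUSP39 replicate 1 was the lowest. The mean level was 3.59 ± 0.111 CPM in the control and 1.88 ± 0.465 CPM in the hairpin libraries (± SD, 3 libraries each), 0.523-fold. On the log2 scale this was -0.94 (SE 0.25, 95% confidence interval -1.44 to -0.43). That value is just short of the 2-fold limit, and the interval spans the limit. The size rested on shUSP39 replicate 1: the log2 fold change was -1.41 with it as the only shUSP39 library and -0.74 without it. UBA7 passed the 2-fold limit without shUSP39 replicate 2, at -1.02, and without shUSP39 replicate 3, at -1.06.

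UBE2L6 (chr11:57319135-57335145, minus strand, 4 exons), the E2 enzyme, had 158, 202 and 125 counts in pGIPZ-NC and 135, 169 and 149 in shUSP39. The groups overlapped fully. The control mean was 5.20 ± 0.921 CPM and the hairpin mean 4.93 ± 0.659 CPM (± SD, 3 libraries each), a log2 difference of -0.08 (SE 0.18, 95% confidence interval -0.46 to 0.30). Its sign turned to 0.06 without pGIPZ-NC replicate 2 and to 0.02 without shUSP39 replicate 1. With shUSP39 replicate 1 alone the value was -0.30.

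UBE2L6 was the only member with 2 transcripts in the table. NM_004223.4 had 107, 142 and 87 counts in pGIPZ-NC and 107, 97 and 82 in shUSP39, and NM_198183.2 had 51, 60 and 38 and then 28, 72 and 67. The share of NM_004223.4 was 69.2% ± 1.33 in pGIPZ-NC (SD, n = 3). In shUSP39 the libraries scattered, with 79.3% in replicate 1, 57.4% in replicate 2 and 55.0% in replicate 3, on both sides of the control range. With reads shared by transcripts left out, the level of UBE2L6 may be too low.

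HERC5 (chr4:89378270-89427314, plus strand, 23 exons), the main human ISG15 ligase, had 824, 874 and 750 counts in pGIPZ-NC and 2693, 2497 and 2610 in shUSP39. The groups were well apart, with 26.9 CPM in the highest control library and 81.6 CPM in the lowest hairpin library. The control mean was 26.4 ± 0.543 CPM and the hairpin mean 84.7 ± 3.35 CPM (± SD, 3 libraries each). The fitted difference was 3.20-fold, or 1.68 on the log2 scale (SE 0.07, 95% confidence interval 1.54 to 1.81), and 1.67 with shUSP39 replicate 1 alone. HERC5 stood at place 257 from the top among the 10695 tested genes.

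HERC6 (chr4:89300004-89364249, plus strand, 23 exons) lies next to HERC5 on the same strand. It had 81, 75 and 51 counts in pGIPZ-NC and 110, 126 and 75 in shUSP39. In CPM, shUSP39 replicate 3 was level with pGIPZ-NC replicate 1, and the other shUSP39 libraries were above all controls. The control mean was 2.22 ± 0.375 CPM and the hairpin mean 3.36 ± 0.793 CPM (± SD, 3 libraries each), a log2 difference of 0.60 (SE 0.25, 95% confidence interval 0.09 to 1.11). Of its 2 current RefSeq mRNAs, 1 had a row in the table. Over the 16 alternatives its log2 difference lay between 0.43 and 0.76.

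USP18 (chr22:18632937-18660164, plus strand, 11 exons), the protease that removes ISG15, had 1722, 1706 and 1493 counts in pGIPZ-NC and 1666, 1547 and 1518 in shUSP39. In CPM all shUSP39 libraries lay below all controls, by a small margin that rests on the scaling. Per total count of the library, pGIPZ-NC replicate 2 lay below shUSP39 replicate 1, so the groups overlapped. The control mean was 53.1 ± 0.775 CPM and the hairpin mean 51.3 ± 0.758 CPM (± SD, 3 libraries each). The log2 difference was -0.05 (SE 0.06, 95% confidence interval -0.18 to 0.08). The value was -0.01 with upper-quartile scaling, which moved the median of all genes from 0.01 to 0.05. USP41, a near copy of USP18, was not analysed here, and reads from it could have been counted with USP18.

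**Figure D2:**
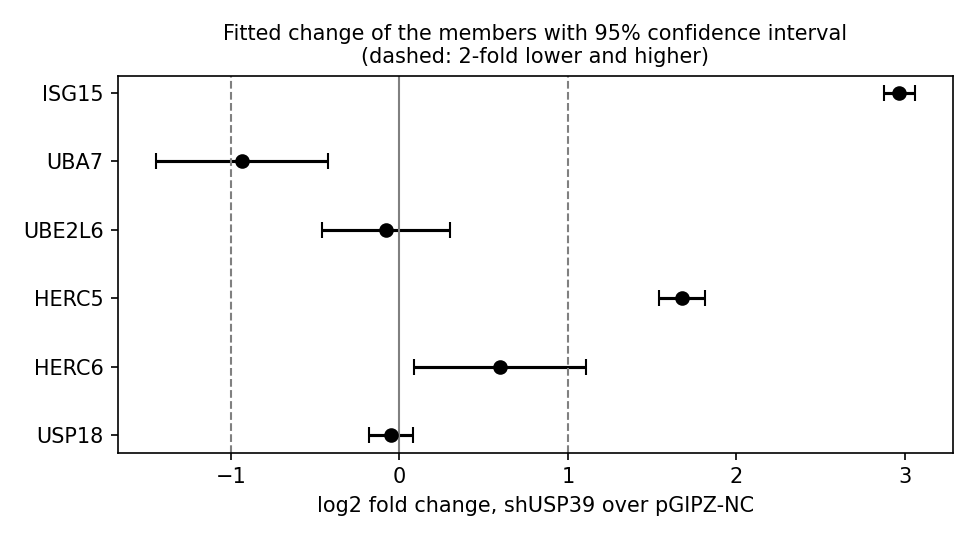
Log2 fold change of shUSP39 over pGIPZ-NC for each member (points) with the 95% confidence interval (bars), and dashed lines at 2-fold lower and higher. The intervals of ISG15 and HERC5 lie beyond 2-fold, those of USP18 and UBE2L6 include 0, and those of UBA7 and HERC6 each cross a dashed line.

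Levels of different genes were compared per kilobase of exon. In pGIPZ-NC the order was ISG15 at 91.8 ± 3.98 CPM per kb, USP18 at 28.6 ± 0.417, HERC5 at 7.53 ± 0.155, UBE2L6 at 4.27 ± 0.755, UBA7 at 1.09 ± 0.0337 and HERC6 at 0.588 ± 0.0994 (SD, n = 3 each). No ranges of neighbours in that order overlapped, and ISG15 had the highest level of the members already in the control cells. UBE2L6 and HERC6 have 2 current RefSeq mRNAs each. If reads shared by transcripts were left out, their levels and places may be too low in both groups. In shUSP39, ISG15 stood at 718 ± 15.5 CPM per kb, USP18 at 27.6 ± 0.408, HERC5 at 24.1 ± 0.955 and UBE2L6 at 4.04 ± 0.540. HERC5 thus came close to USP18, though their ranges stayed apart, with 25.1 CPM per kb as the highest HERC5 library and 27.2 as the lowest USP18 library. HERC6 at 0.891 ± 0.210 CPM per kb and UBA7 at 0.568 ± 0.141 changed places at the bottom of the order. Their ranges stayed narrowly apart, with 0.671 CPM per kb as the lowest HERC6 library and 0.665 as the highest UBA7 library.

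Ratios of counts within a library do not depend on how libraries are scaled. ISG15 had 1.03, 1.16 and 1.11 counts per count of USP18 in the control libraries and 8.57, 9.13 and 9.05 in the shUSP39 libraries. The mean ratio thus rose by 8.10-fold. Near-equal counts in pGIPZ-NC are not equal levels, since ISG15 has 637 exonic bases and USP18 has 1858. Per count of UBA7, ISG15 went from 16.3 ± 1.21 to 255 ± 67.1 counts (SD, n = 3 each), with 332 in shUSP39 replicate 1 and 221 and 211 in replicates 2 and 3.

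The ligase HERC5 went from 0.498 ± 0.0174 to 1.65 ± 0.0601 counts per count of USP18 and from 7.38 ± 0.378 to 47.3 ± 13.3 per count of UBA7 (SD, n = 3 each). Both increased ratios hold in every library. ISG15 over HERC5 increased less, from 2.21 ± 0.0510 to 5.41 ± 0.217. HERC6 over USP18 was 0.0470, 0.0440 and 0.0342 in pGIPZ-NC and 0.0660, 0.0814 and 0.0494 in shUSP39. On this scale the groups of HERC6 did not overlap, by a narrow margin. Set against UBE2L6 they did, with UBE2L6 over HERC6 at 1.95, 2.69 and 2.45 in pGIPZ-NC and 1.23, 1.34 and 1.99 in shUSP39. UBE2L6 over USP18 was 0.0980 ± 0.0182 in pGIPZ-NC and 0.0961 ± 0.0142 in shUSP39, with overlapping groups.

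**Figure D3:**
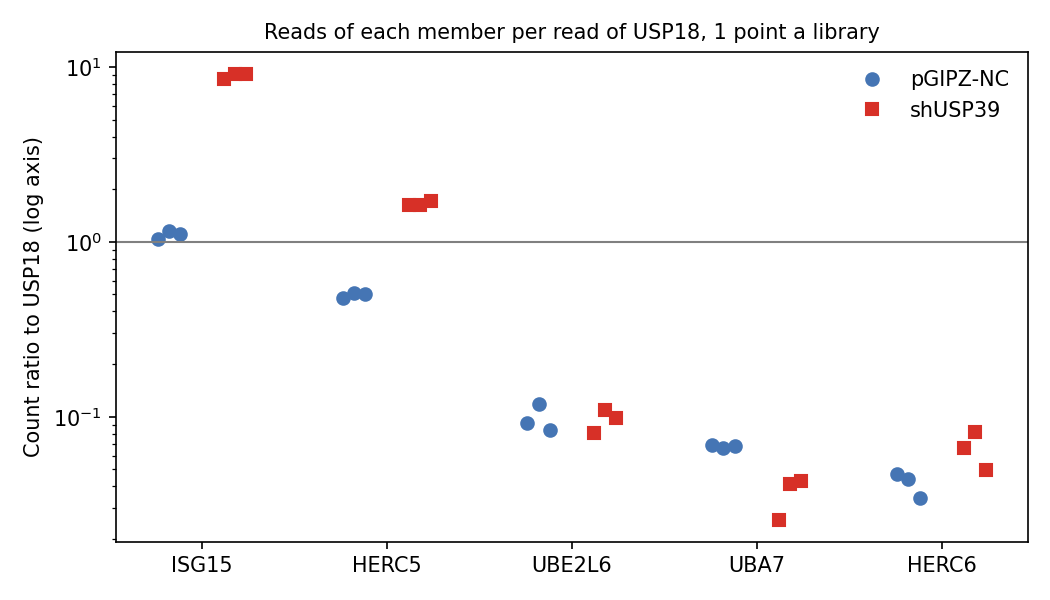
Counts of each member per count of USP18 in the same library, on a log axis, with pGIPZ-NC as circles and shUSP39 as squares and 1 point a library. ISG15 goes from about equal counts with USP18 (grey line) to 8.57 to 9.13, HERC5 from below that line to above it, UBA7 falls and UBE2L6 overlaps. Counts are not divided by exon length. Per kilobase of exon, ISG15 was above USP18 and HERC5 below USP18 in both groups.

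Genes beside the members on the chromosome were looked at next, and none overlaps a member. Both neighbours of ISG15 had higher counts in shUSP39. HES4, a transcription factor of the Notch pathway, rose from 3.86 ± 0.915 to 8.24 ± 1.07 CPM (n = 3 each, log2 fold change 1.09, SE 0.18, adjusted p = 2.81e-05, edgeR). AGRN, which encodes agrin, rose from 1.69 ± 0.489 to 3.32 ± 0.424 CPM (n = 3 each, log2 fold change 0.98, SE 0.26, edgeR adjusted p = 0.00445). The difference of ISG15 exceeded that of either neighbour. PPM1K, a mitochondrial phosphatase gene beside HERC6, rose by 0.67 on the log2 scale (SE 0.10, edgeR adjusted p = 3.59e-06), close to the 0.60 of HERC6 itself. TRAIP beside UBA7 stood at 0.05 (SE 0.06, edgeR adjusted p = 0.556) and SERPING1 beside UBE2L6 at -0.91 (SE 0.44, edgeR adjusted p = 0.125), neither of which passed.

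The genes with the most similar profile to each member were found by Euclidean distance of log2 CPM over the 6 libraries, centred on the control mean, among 10694 tested genes. For ISG15 they were PPEF2, VANGL2 and IFIT2, at distances of 0.314, 0.327 and 0.336. IFIT2, an interferon-stimulated gene, had 21.3 ± 2.67 CPM in the control and 157 ± 2.79 CPM in the hairpin libraries (± SD, 3 libraries each). PPEF2 had 0 counts in pGIPZ-NC and 0.499 CPM in shUSP39, and passed the filter through the shUSP39 libraries. Its fitted log2 fold change was 6.95, beside 2.97 for ISG15. The log2 CPM used here holds a prior count of 2, which draws in the change of such a low gene, so its closeness to ISG15 rests on that setting. For HERC5 they were MMP10, JUN and SMAGP, at 0.139, 0.166 and 0.176. MMP10, a secreted metalloproteinase gene, had 559 ± 16.6 CPM in the control and 1822 ± 30.1 CPM in the hairpin libraries (± SD, 3 libraries each).

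For UBA7 the nearest were ARFGEF3, FAXDC2 and LRP1B, at 0.344, 0.365 and 0.406. For USP18 they were RNF114, BMS1 and ASNSD1, at 0.0197, 0.0212 and 0.0275, which like USP18 differed little between the groups. For HERC6 they were KIAA0391, LRRC8C and C6orf163, at 0.296, 0.309 and 0.318, and for UBE2L6 PARVB, DNASE1L1 and FBXO38, at 0.143, 0.155 and 0.167. No member was among the 3 nearest genes of another member.

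Other enzymes that have been linked to ISG15 were set beside the members. Of 9 other ISG15 ligases and proteases 8 were tested, and 2 rose and 2 fell at an adjusted p under 0.05, 0 of them over 2-fold. This is 25.0% in each direction, beside 16.1% and 17.5% of all tested genes. The median log2 fold change was -0.04, beside 0.01 over all tested genes. TRIM25, a ligase for ISG15 and ubiquitin, rose by 0.14 on the log2 scale (SE 0.04, edgeR adjusted p = 0.00327). The protease USP2 rose by 0.67 (SE 0.20, edgeR adjusted p = 0.00916), but stood at 0.15 when only its highest transcript was used, and lost the call there, without pGIPZ-NC replicate 2 and with shUSP39 replicate 1 alone (0.69). USP14 fell by 0.22 (SE 0.06, edgeR adjusted p = 0.00843) and lost the call without shUSP39 replicate 3 and with shUSP39 replicate 1 alone (-0.18). USP13 fell by 0.14 (SE 0.05, edgeR adjusted p = 0.0180) and passed in 10 of 16 alternatives, not with upper-quartile or library-size scaling, with shUSP39 replicate 1 alone (-0.09), or without pGIPZ-NC replicate 3, shUSP39 replicate 2 or shUSP39 replicate 3.

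Relatives of the members in the ubiquitin system were set beside them in the same way. Of 36 listed 27 were tested, and 3 rose (11.1%, beside 16.1% of all tested genes) and 8 fell (29.6%, beside 17.5%), 0 of them over 2-fold, with a median log2 fold change of -0.12. With shUSP39 replicate 1 alone, 6 rather than 11 passed. Among 8 E1 enzymes and subunits related to UBA7, 0 rose and 2 fell (25%, beside 17.5% of all tested genes). Their median was -0.21, nearer to 0 than the -0.94 of UBA7. UBA2, a subunit of the SUMO E1, fell by 0.44 (SE 0.04, edgeR adjusted p = 2.40e-09), and UBA1, the main ubiquitin E1, stood at -0.12 (SE 0.05, edgeR adjusted p = 0.0942).

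Among 9 tested modifiers related to ISG15, 2 rose (22.2%, beside 16.1% of all tested genes) and 3 fell (33.3%, beside 17.5%), with a median of -0.01. NEDD8 fell by 0.26 on the log2 scale (SE 0.05, edgeR adjusted p = 0.000158). UBD, which encodes FAT10, another modifier made of a pair of ubiquitin-like domains, had at most 5 counts in any library. Among 10 tested paralogues of UBE2L6, HERC5 and HERC6, 1 rose (10%) and 3 fell (30%), with a median of 0.02. With so few genes, nothing is read from these shares. HERC2 fell by 0.41 (SE 0.04, edgeR adjusted p = 1.64e-09). HERC1 stood at 0.02 (SE 0.05, edgeR adjusted p = 0.837), with a sign that turned when pGIPZ-NC replicate 1 or 2 or shUSP39 replicate 2 was left out.

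**Figure D4:**
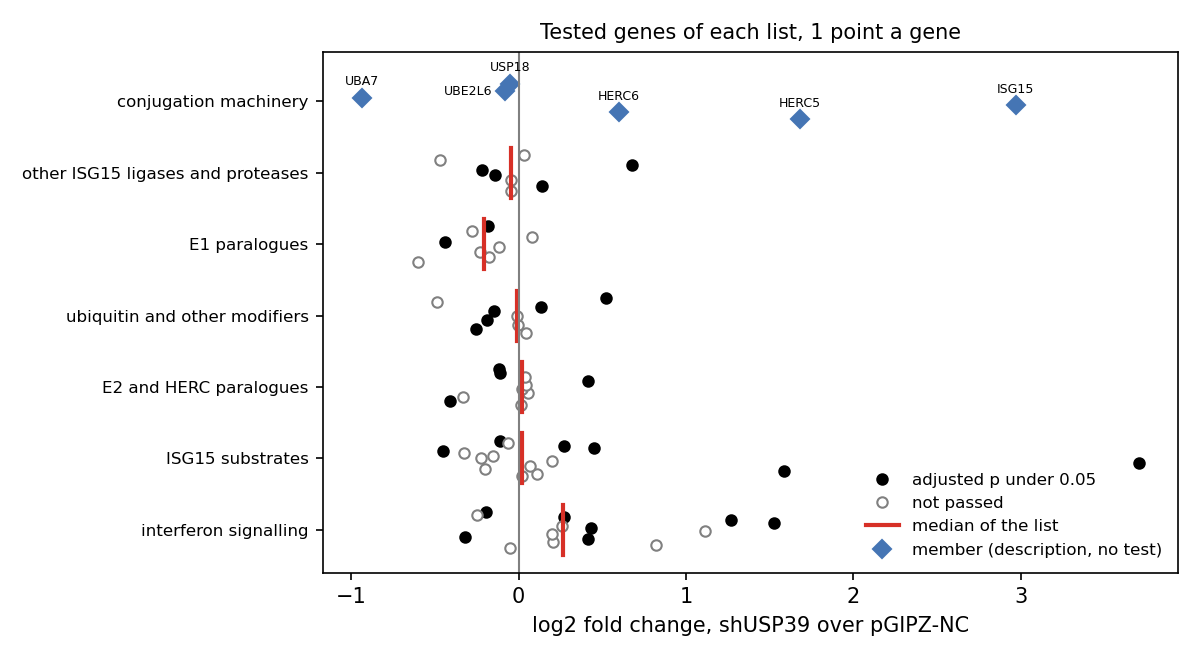
Log2 fold change of shUSP39 over pGIPZ-NC for each tested gene, 1 point a gene, by list. Diamonds are the 6 members, filled circles passed an adjusted p under 0.05, open circles did not, and vertical lines are list medians. Points beyond 1 are found in the members, the substrates and the interferon signalling genes.

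The mRNA of proteins known to carry ISG15 was looked at as well, since these proteins are the targets of the pathway. Of 21 listed substrates 15 were tested, and 4 rose (26.7%, beside 16.1% of all tested genes) and 2 fell (13.3%, beside 17.5%), with a median log2 fold change of 0.02. Of those that rose, 2 did so over 2-fold, as 4.53% of all tested genes did. With shUSP39 replicate 1 alone, 3 substrates passed. IFIT1, an antiviral RNA-binding protein, had 2, 2 and 16 counts in pGIPZ-NC and 85, 87 and 96 in shUSP39. It passed the filter through the shUSP39 libraries, where it was high. Both counts of substrates that rose include IFIT1, so nothing is read from their shares. DDX58, which encodes the RNA sensor RIG-I, rose by 1.59 (SE 0.12, edgeR adjusted p = 6.03e-10), close to the 1.68 of HERC5.

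Of 17 genes that carry or limit the interferon signal upstream of ISG15, 14 were tested, and 5 rose (35.7%, beside 16.1% of all tested genes) and 2 fell (14.3%, beside 17.5%), with a median log2 fold change of 0.27. Of those that rose, 2 did so over 2-fold, as did 4.53% of all tested genes. SOCS3, a feedback inhibitor of JAK kinases, had 937, 1019 and 965 counts in pGIPZ-NC and 2386, 2355 and 2287 in shUSP39 (log2 fold change 1.27, SE 0.07, edgeR adjusted p = 3.71e-14). SOCS1, its relative, had 17, 12 and 11 counts and then 30, 57 and 28 (log2 fold change 1.52, SE 0.47, edgeR adjusted p = 0.0118), a call lost without shUSP39 replicate 2 and with shUSP39 replicate 1 alone (1.11). IRF9, the DNA-binding part of the complex that reads the ISRE, rose by 0.44 (SE 0.10, edgeR adjusted p = 0.000754), and stood at 0.33 with shUSP39 replicate 1 alone, where it did not pass and 3 genes of the list did. IFNAR1, a receptor subunit, stood at -0.05 (SE 0.04, edgeR adjusted p = 0.359) and STAT2 at -0.25 (SE 0.36, edgeR adjusted p = 0.651). IRF7, at 1.11 (SE 0.44, edgeR adjusted p = 0.0529), did not pass here and passed in 8 of 16 alternatives.

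Of 17 interferon genes, whose products induce ISG15, 3 passed the filter. IFNB1 had 0, 4 and 0 counts in pGIPZ-NC and 50, 79 and 104 in shUSP39. IFNL1 had 0 counts in every control library and 137, 108 and 75 in shUSP39, which is at least 35.4-fold higher against a floor of 3 counts per library. Both passed the filter through the shUSP39 libraries, where they were high, so the counts are given with no p, and neither could be tested with at least 10 counts in every library. IFNE fell by 0.77 on the log2 scale (SE 0.25, edgeR adjusted p = 0.0158), a call lost with shUSP39 replicate 1 alone (-0.48) and without pGIPZ-NC replicate 1 or 2 or shUSP39 replicate 3. With such control counts, IFNB1 and IFNL1 could pass the filter only if all 3 hairpin libraries were high. That their groups did not overlap was thus set by the filter, and nothing is read from it. ISG15 and HERC5 were higher in shUSP39 too, but were chosen on this comparison. UBA7 was lower, and USP18 stood at about the control level (log2 difference -0.05, SE 0.06). ITGAL and ITGB2, which encode the leukocyte receptor for secreted ISG15, had at most 2 counts in any library.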

How the data were processed

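Raw read counts per RefSeq mRNA transcript were deposited by the authors in 1 table, which also holds the authors' own comparison (group means of normalized counts, fold, p-value, q-value), not used here. The submitters' processing notes name HISAT2, Cufflinks and hg19. The counter and its use of strand are not given in the sources used here.

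Counts of 21368 transcripts were summed per symbol to 16571 genes, with 46 of 47 date-like symbols restored through the accession. After filterByExpr and TMM scaling, they were fitted with the robust quasi-likelihood test of edgeR 4.0.16 in R 4.3.3 over all 6 libraries, with Benjamini-Hochberg adjustment. Genes were called at an adjusted p under 0.05 and over 2-fold, the fold limit of the study. Depth was 28294819 to 32939264 counts per library and the biological coefficient of variation 7.59%. Coordinates and exon lengths came from GENCODE on GRCh37 (hg19). In counts simulated for this comparison, with 10695 genes, 97.5% of 200 genes changed 4-fold were recovered with 1 false call.

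The members and gene lists were chosen with earlier results of these data known. Named genes are the members, up to 6 genes a list past the adjusted p with the largest differences, any gene called over 2-fold, up to 3 abundant genes a list that did not pass, the 3 nearest profiles and the genes next to a member. Outside this rule, UBD, UBE2L3, JAK1, IRF7, STAT2, ITGAL, ITGB2, MUC16, PTPRC, PAX8, EPCAM, CDH1, KRT7, IFNL3 and the interferon alpha genes were added after their values were seen. Alternatives were DESeq2 1.42.0 (size factors and Wald test), limma-voom (limma 3.58.1), other scalings and filters, a block by replicate number, leaving out single libraries and the highest transcript of each gene. Values of a few listed genes are not reported here.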

Additional observations from a re-analysis of the deposited data

How the results depend on the processing

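ISG15 and HERC5 stayed over 2-fold higher in all 16 alternatives, at 2.93 to 3.01 and 1.65 to 1.72 on the log2 scale. The number of members called lower over 2-fold was 0, but 1 with shUSP39 replicate 1 as the only shUSP39 library, an alternative chosen after seeing the data, and 0 to 1 when 1 library was left out. UBA7 gave that 1, at -1.02 without shUSP39 replicate 2 and -1.06 without shUSP39 replicate 3. The value of USP18 was -0.03 with library size only. With at least 10 counts in every library 471 rather than 728 genes were called, of 9556 tested. With shUSP39 replicate 1 alone, the other ISG15 ligases and proteases past the adjusted p numbered 1 instead of 4, the relatives 6 instead of 11, the substrates 3 instead of 6 and the interferon signalling genes 3 instead of 7. With the 2-fold limit these lists gave 0, 0, 2 and 2, with IFIT1 counted among the substrates. Leaving out 1 library gave 2 to 4 other ligases and proteases, the lowest without shUSP39 replicate 3. With upper-quartile scaling, 58.0% rather than 48.0% of the genes past the adjusted p were higher. The replicate block gave 745 called genes, and 3981 rather than 3598 past the adjusted p. Deviations of libraries with the same number correlated at 0.0688, 0.0048 and 0.0216, so the numbers were taken not to pair the samples. A pseudocount was not tried, since the table holds counts. At 43 to 126 counts in a library, UBA7 and HERC6 limit the precision of their fold changes.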

Other observations

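Counts of several further interferon genes appeared only in shUSP39 replicates 2 and 3, the libraries with a count for more genes. IFNA8 had 0 counts in every pGIPZ-NC library and in shUSP39 replicate 1, and 8 and 5 counts in replicates 2 and 3. IFNL2 had 0 counts in the same 4 libraries and 11 and 5 in the other two, and IFNA2 had 7 and 1. Others had counts outside these libraries. IFNL3 had 0 counts in every pGIPZ-NC library and 8, 10 and 4 in shUSP39, and IFNA14 had 0, 4 and 1 and then 2, 6 and 8. MUC16, the gene of the ovarian cancer antigen CA125, had 5, 1 and 1 counts in pGIPZ-NC and 6, 150 and 71 in shUSP39. ISG15 did not follow this split, with 446 CPM in shUSP39 replicate 1 and 462 and 465 CPM in replicates 2 and 3, and HERC5 stood at 84.2, 81.6 and 88.2 CPM. UBA7 was lower in replicate 1, at 1.34 CPM, than in replicates 2 and 3, at 2.09 and 2.20 CPM. None of these differences within the shUSP39 group was tested.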
